A study of Mus musculus with 8 samples.

Results

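Atcay and 8 further genes known from neurons were described in esophagus tissue of MGL KO and WT mice. The further genes were Ret, Chat, Vip, Nos1, Uchl1, Elavl4, Prph and Snap25. The 9 genes were taken by symbol from the 32849 rows of the count table. All 9 had at least 1 count, and 8 of them, all but Chat, were among the 14864 genes kept by the filter on low counts. MGL, monoacylglycerol lipase, degrades the endocannabinoid 2-arachidonoylglycerol, and its gene Mgll is deleted in every cell of the MGL KO mice, which were bred in house with WT littermates. Poly(A)-selected RNA of frozen esophagus tissue, 4 samples from MGL KO and 4 from WT mice without induced disease, was sequenced to compare the genotypes at baseline. Whether whole esophagi or segments were used is not stated. The labels give no age or sex for a library and no treatment for either group. Atcay was chosen by its fold change between these same libraries, and the other genes were chosen as neuronal genes with results of this comparison known, so their values in it are a description. Expression is given as normalized CPM, counts per gene after scaling each library to the same TMM-adjusted total. A log2 fold change below 0 means a lower level in MGL KO.

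Libraries held 13479069 to 17090152 counts. The targeted gene Mgll was at 13.7 ± 1.54 normalized CPM (SD, n = 4) in MGL KO and 81.2 ± 9.97 (SD, n = 4) in WT esophagi, with no overlap. Muscle and epithelium varied between libraries irrespective of genotype. Markers of skeletal muscle, the outer coat of the mouse esophagus, summed to between 41184 normalized CPM in MGL KO replicate 4 and 96590 in MGL KO replicate 2, and to between 54036 and 83389 in WT, highest in WT replicate 3. Squamous epithelial markers were lowest in MGL KO replicate 2 (4810 normalized CPM) and WT replicate 3 (5617), against 10446 to 18943 in the other libraries. MGL KO replicate 4 was high in genes of motile cilia, with their regulator Foxj1 at 227.7 normalized CPM and at most 1.65 elsewhere. The tissue that this RNA came from was not tested. Fold changes of the members without some of these libraries are given beside their values.

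The esophageal wall is supplied by the enteric nervous system, ganglia of neurons and glia between the muscle layers, and by axons of neurons whose cell bodies lie outside the wall. Enteric motor neurons excite smooth muscle of the gut with acetylcholine, made by choline acetyltransferase (Chat). They relax it with nitric oxide, made by neuronal nitric oxide synthase (Nos1), and with vasoactive intestinal peptide (Vip). Ret, the receptor tyrosine kinase for ligands of the GDNF family, is needed for the precursors of these neurons to colonize the gut. Uchl1 (the pan-neuronal antigen PGP9.5), Elavl4 (the RNA-binding protein HuD), Prph (the intermediate filament peripherin) and Snap25 (a SNARE protein of vesicle fusion) mark neurons of most kinds. Atcay encodes caytaxin, a neuronal protein with a BCH domain whose loss causes ataxia in humans and in jittery mice. In whole tissue, fewer cells of a type and less RNA per cell cannot be told apart. Counts per gene also do not assign the RNA of Atcay, or of the other genes, to neurons.

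Sequence before the annotated start is shown for Chat and Vip, because these transmitter genes of excitatory and inhibitory motor neurons differ widely in level in this tissue, with Chat at the limit of detection. RefSeq entries of assembly GRCm38.p6 matched 6 of the 9 genes, namely Chat, Vip, Nos1, Uchl1, Elavl4 and Prph. Atcay, Ret and Snap25 were not among them. The 250 bases before the annotated start are printed 5′ to 3′ on the strand of the gene, at chr14:32465910-32466159 (reverse strand) for Chat and chr10:5638968-5639217 (forward strand) for Vip. Capitals mark 3 motifs read on both strands, which do not overlap each other here.
Chat: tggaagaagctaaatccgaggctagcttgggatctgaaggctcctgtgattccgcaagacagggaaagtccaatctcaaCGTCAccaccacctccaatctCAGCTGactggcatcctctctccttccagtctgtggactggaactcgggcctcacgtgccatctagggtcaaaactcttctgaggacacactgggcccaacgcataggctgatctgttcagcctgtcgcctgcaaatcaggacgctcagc
Vip: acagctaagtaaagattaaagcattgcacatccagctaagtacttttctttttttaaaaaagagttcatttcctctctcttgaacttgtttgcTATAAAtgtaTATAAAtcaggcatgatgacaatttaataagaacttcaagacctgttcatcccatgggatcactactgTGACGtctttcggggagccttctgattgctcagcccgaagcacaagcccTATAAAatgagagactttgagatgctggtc
The first motif is the core of the cAMP response element, TGACG, read as CGTCA on the other strand, which each of these stretches held once. It was present in 17.8% of all 32851 promoter entries of this length. The second, TATAAA, read as TTTATA on the other strand, a TATA box, occurred 3 times before Vip and in 0 copies before Chat, and 12.4% of the entries held it. The E-box CAGCTG, a form bound by myogenic factors, was found once before Chat and in 13% of the entries. These matches describe letters only, and counts per gene do not show which start site was used.

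Atcay was the only one of the 9 genes whose MGL KO and WT libraries did not overlap. It was at 8.82, 12.1, 13.6 and 4.72 normalized CPM in MGL KO replicates 1 to 4, from 144, 134, 220 and 84 counts. In WT replicates 1 to 4 it was at 27.9, 27.5, 52.4 and 26.4 normalized CPM, from 501, 481, 797 and 405 counts. Every MGL KO library thus lay below every WT library, with WT replicate 3 far above the other WT libraries and MGL KO replicate 4 the lowest of all. The group means were 9.80 ± 3.92 (SD, n = 4) and 33.6 ± 12.6 (SD, n = 4), so that MGL KO esophagi held 29.2% of the WT level. In edgeR's quasi-likelihood fit across all genes, the log2 fold change came to -1.78 (standard error 0.35), with an unadjusted p of 0.000689 and an adjusted p of 0.262, which did not pass 0.05. It was the 34th lowest log2 fold change of the 14864 genes tested, with 0.229% of them at or below it. The spread of Atcay within WT came mostly from WT replicate 3, without which the log2 fold change came to -1.47 (standard error 0.32), and without MGL KO replicate 4 it was -1.55 (standard error 0.29). With both of these libraries left out, a setting chosen after the data were seen, it was -1.25 (standard error 0.18, edgeR quasi-likelihood adjusted p = 0.169), and the remaining libraries still did not overlap.

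**Figure D1:**
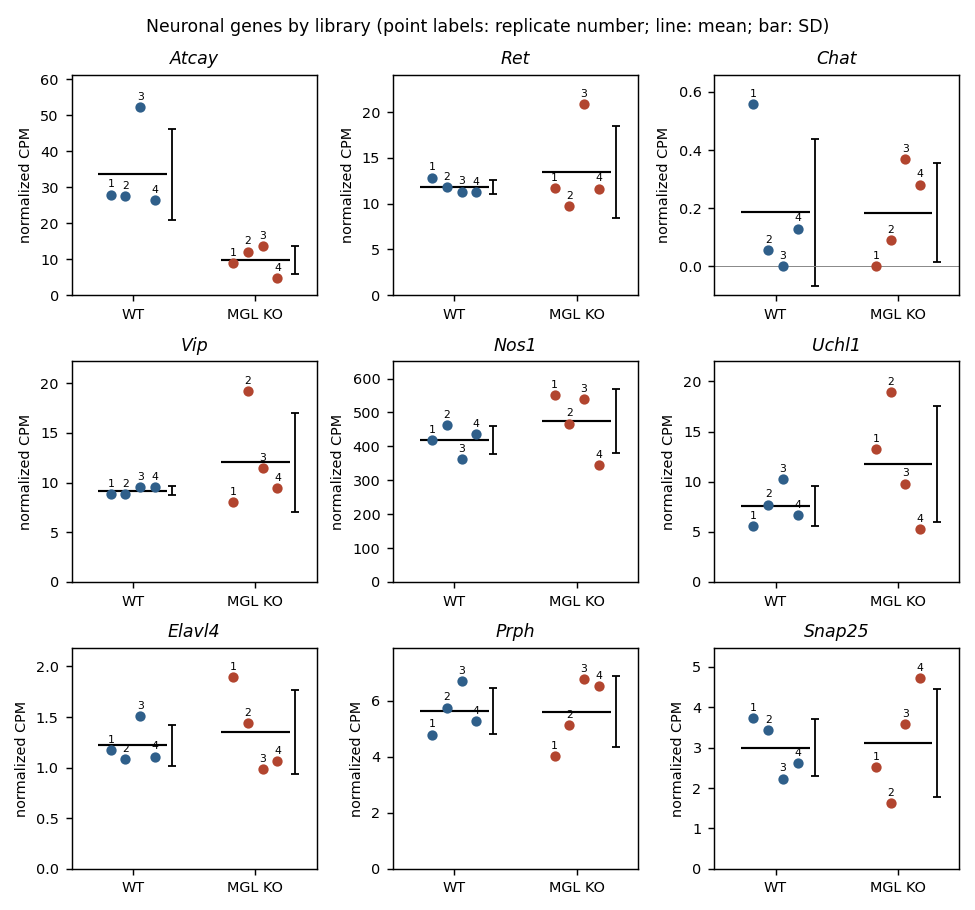
Normalized CPM (vertical axes, each including 0) of the 9 genes in the 4 WT (blue) and 4 MGL KO (red) libraries, with replicate numbers at the points, group means as lines and SD as bars. The MGL KO libraries of Atcay lie between 4.72 and 13.6, below all WT libraries, whereas the groups overlap in the other 8 panels.

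The call of Atcay depended on the test. The quasi-likelihood test called 0 of the 8 at an adjusted p under 0.05, with 7 of 14864 genes (0.0471%) called over the whole table, 0.0202% as higher and 0.0269% as lower in MGL KO, and 1, Atcay, had an unadjusted p under 0.05, where 8.65% of all genes did. The count of genes with separate groups was 1 of 8, Atcay, where 3.3% of all genes were lower in every MGL KO library and 6.02% were separate in either direction. It was also the 1 gene of the 8 with a log2 fold change under -1, where 1.67% of all genes were under -1 and 4.16% beyond 1 either way. As the contrast chose Atcay, nothing is read from these shares. Among the other tools, edgeR's exact test, which the study's methods name, called Atcay on the filtered genes (adjusted p = 0.00145, with 0.431% of all genes called) and on every gene with a count (adjusted p = 0.00334, 0.185% called). DESeq2 called it as well (adjusted p = 0.000579, 0.935% called), as did the exact test with library size alone, added after the data were seen (adjusted p = 0.000343, 0.132% called), whereas limma-voom with quality weights gave an adjusted p of 0.071 (0.168% called). With the mean of the skeletal muscle markers as a covariate, the log2 fold change was -1.69 and its standard error was 0.20 in place of 0.35, and edgeR's quasi-likelihood fit then gave an adjusted p of 0.0292 (0.168% of all genes called). With the mean of the glial markers as a covariate it was -1.80 (edgeR quasi-likelihood adjusted p = 0.126, 0.0471% called), and with that of the squamous epithelial markers -1.75 (edgeR quasi-likelihood adjusted p = 0.172, 0.0673% called). Atcay was called in 5 of the 17 alternatives that kept all libraries and in 0 of the 8 fits that left out 1 library each. Its direction was the same in all 26 alternatives. In the other alternatives, where Atcay was not called, the share of all genes called was 0.0471% with RLE size factors and with upper quartile factors, 0.0088% with no filter, 0.0404% with library size alone, 0.0523% with at least 10 counts in every library, 0.0202% with the Y-linked genes as covariate, 0.0269%, 0.0202% and 0.0336% without MGL KO replicate 1, MGL KO replicate 2 and WT replicate 4, and 0.0135% without any other library, with both doubted libraries left out, with the replicate block, with the smooth muscle covariate and with the robust fit.

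**Figure D2:**
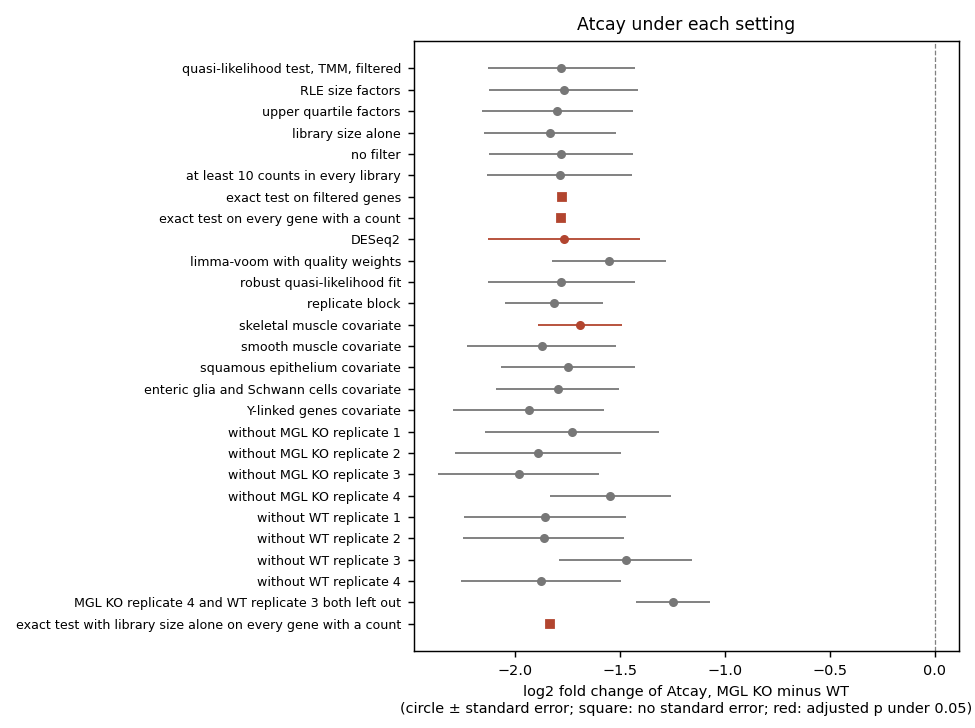
Log2 fold change of Atcay (MGL KO minus WT, horizontal axis) in the quasi-likelihood test and 26 alternative settings (rows), with standard errors where the test gives one and calls at an adjusted p under 0.05 in red. All points lie between -1.98 and -1.25, and 5 are called.

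Atcay lies on the reverse strand of chromosome 10 of GRCm39, at chr10:81040331-81066670, and its canonical transcript in GENCODE M39 has 13 exons. The long noncoding gene Atcayos runs on the opposite strand over its 3′ part, and 684 bases, or 15.59% of the merged exons of Atcay, overlap exons of Atcayos. The counting tool and its use of strand are not given in the sources used here, so reads from this stretch cannot be assigned to a strand, and Atcayos itself was not analysed here. Of the closest protein-coding genes, Nmrk2, a nicotinamide riboside kinase of striated muscle, begins 2442 bases beyond the 3′ end of Atcay on the same strand. It was at 28.9 ± 14.3 normalized CPM (SD, n = 4) in MGL KO and 45.0 ± 12.6 (SD, n = 4) in WT esophagi, and the groups overlapped (log2 fold change -0.64, standard error 0.33). Zfr2, 2289 bases upstream of Atcay, had a log2 fold change of -0.30 (standard error 0.23), Matk one of -0.59 (standard error 0.37) and Dapk3 one of 0.15 (standard error 0.15). None of the 4 neighbours had separate groups, and edgeR's quasi-likelihood test gave each an unadjusted p of 0.0853 or more.

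**Figure D3:**
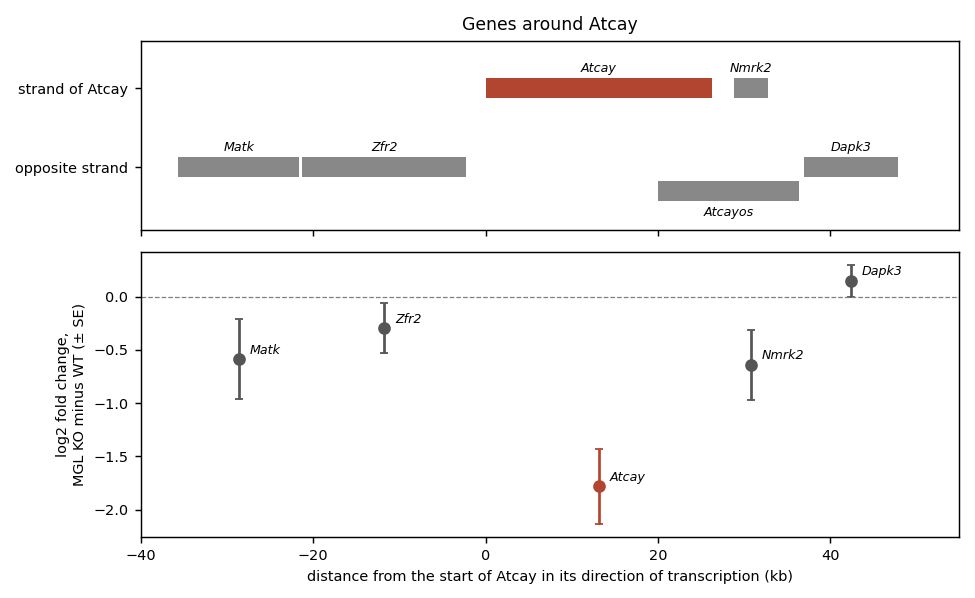
Top, positions of Atcay, its antisense gene Atcayos and the 2 nearest protein-coding genes on each side, by distance in kb from the start of Atcay. Bottom, their log2 fold changes (MGL KO minus WT) with standard errors, where Atcay is at -1.78 and the protein-coding neighbours lie between -0.64 and 0.15.

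Ret, the receptor, was at 11.7, 9.75, 20.9 and 11.6 normalized CPM in MGL KO and at 12.8, 11.8, 11.3 and 11.3 in WT replicates 1 to 4. The WT libraries were close to each other, and MGL KO replicate 3 stood above all of them. the log2 fold change came to 0.19 (standard error 0.23), and it was -0.10 without MGL KO replicate 3.

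Of the transmitter genes, Chat was at the limit of detection. Its counts were 0, 1, 6 and 5 in MGL KO and 10, 1, 0 and 2 in WT replicates 1 to 4, and it was not tested. A count of 0 allows up to 3 counts, or between 0.167 and 0.271 normalized CPM depending on the library, and this limit covers counting error only. Slc18a3, the vesicular acetylcholine transporter encoded within the Chat locus, had 4 to 17 counts. Slc5a7, the choline transporter of cholinergic neurons, had 6 to 36 counts and a log2 fold change near 0 at -0.01 (standard error 0.47). A difference in these cholinergic genes was not detectable at this depth.

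Vip was at 8.02, 19.2, 11.5 and 9.44 normalized CPM in MGL KO and at 8.81, 8.85, 9.53 and 9.58 in WT replicates 1 to 4. The WT libraries differed by less than 1 normalized CPM, and the highest value belonged to MGL KO replicate 2, the library with the most skeletal muscle and the least squamous epithelium. the log2 fold change came to 0.38 (standard error 0.26), and 0.07 without that library.

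Nos1 was the most abundant of the 9 genes. It was at 551, 467, 539 and 345 normalized CPM in MGL KO and at 417, 462, 363 and 435 in WT replicates 1 to 4, from 5179 to 8995 counts. MGL KO replicate 4, with the lowest sum of skeletal muscle markers, was the lowest. MGL KO replicate 2, with the highest sum, was below replicates 1 and 3 of its group. WT replicate 3, with the highest sum of WT, was the lowest of WT. The markers Ryr1 and Atp2a1 were also lower in MGL KO replicate 2 than in replicates 1 and 3, and lowest in replicate 4. The other skeletal muscle markers did not show this order in replicate 2. Neither Ryr1 nor Atp2a1 was the lowest of WT in WT replicate 3. The relation of Nos1 to muscle content was not tested. The Nos1 groups overlapped, at a log2 fold change of 0.18 (standard error 0.17). With 1 library left out in turn it lay between 0.11 (without MGL KO replicate 1) and 0.31 (without MGL KO replicate 4). Per kb of its canonical transcript, Nos1 in WT was at 41.1 ± 4.10 normalized CPM (SD, n = 4), against 0.294 ± 0.0479 (SD, n = 4) for Elavl4. Skeletal muscle fibers are known to make a form of neuronal nitric oxide synthase, and counts per gene do not separate it from that of neurons.

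Among the pan-neuronal genes, Uchl1 was the most variable. It was at 13.2, 19.0, 9.80 and 5.23 normalized CPM in MGL KO and at 5.58, 7.71, 10.3 and 6.65 in WT replicates 1 to 4. MGL KO replicate 2 was the highest and MGL KO replicate 4 the lowest library, so the groups overlapped. The log2 fold change of 0.64 (standard error 0.37) was 0.32 without MGL KO replicate 2 and 0.89 without MGL KO replicate 4. Of the merged exons of Uchl1, 19.41% overlap those of the antisense gene Uchl1os.

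Elavl4 was at 1.90, 1.44, 0.987 and 1.07 normalized CPM in MGL KO and at 1.17, 1.08, 1.51 and 1.11 in WT replicates 1 to 4, from 16 to 31 counts. Prph was at 4.04, 5.14, 6.78 and 6.52 normalized CPM in MGL KO and at 4.80, 5.76, 6.71 and 5.28 in WT replicates 1 to 4. For Snap25, the values were 2.51, 1.62, 3.58 and 4.72 normalized CPM in MGL KO and 3.74, 3.42, 2.24 and 2.61 in WT replicates 1 to 4. In all 3 genes the MGL KO libraries spanned the WT range. Their log2 fold changes were 0.14 (standard error 0.30) for Elavl4, -0.002 (standard error 0.23) for Prph and 0.06 (standard error 0.35) for Snap25. With 1 library left out in turn, Elavl4 lay between -0.07 (without MGL KO replicate 1) and 0.27, Prph between -0.10 and 0.13, and Snap25 between -0.21 (without MGL KO replicate 4) and 0.27 (without MGL KO replicate 2). The standard errors leave room for moderate changes in either direction, so equal expression was not shown.

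Over the 7 tested genes other than Atcay, the median log2 fold change was 0.18, with 6 above and 1 below 0, beside a median of 0.02 over all genes tested. Their adjusted p-values in the quasi-likelihood test of edgeR were 0.653 or more, and all 7 were called in 0 of the 26 alternatives. The ratio of Atcay to each of these 7 genes was lower in every MGL KO than in every WT library. Relative to Prph, Atcay reads were between 0.724 and 2.35 times as many in MGL KO and between 4.76 and 7.81 times as many in WT libraries. Relative to Uchl1, the range was 0.638 to 1.38 in MGL KO and 3.56 to 5.11 in WT. With Snap25 the ranges nearly met, at 1.00 to 7.44 and 7.48 to 23.4. As Atcay was chosen for its difference, these ratios are a description.

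Levels of different genes were compared per kb of canonical transcript in WT esophagi. The order was Nos1 (41.1 normalized CPM per kb), Atcay (8.95 ± 3.36, SD, n = 4), Vip (5.87 ± 0.269), Uchl1 (4.15 ± 1.10), Prph (2.90 ± 0.418), Ret (2.07 ± 0.127), Snap25 (1.31 ± 0.305), Elavl4 (0.294) and Chat (0.0511 ± 0.0694). Between neighbours in this order, the library ranges of Vip and Uchl1 and of Uchl1 and Prph overlapped, and those of the others did not. In MGL KO esophagi, Atcay was at 2.61 ± 1.05 normalized CPM per kb (SD, n = 4) and stood behind Vip, Uchl1 and Prph, with a range that overlapped those of Uchl1, Prph, Ret and Snap25. Per kb of merged exons, Atcay was again second in WT at 7.65, but Vip dropped to 1.06 and Snap25 to 0.300, since the annotation gives both genes long additional exons.

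Genes of the pathways around these 9 were read in 11 lists of 100 genes, of which 98 had a count and 82 were tested. The quasi-likelihood test of edgeR called 0 of the 82 at an adjusted p under 0.05, as did the exact tests and limma-voom, and DESeq2 called 1, Vamp1, a vesicle SNARE of neurons and motor terminals (adjusted p = 0.0433 from DESeq2). An unadjusted p under 0.05 was reached by 1 gene that was higher and 5 that were lower in MGL KO, or 1.22% and 6.1% of the 82, beside 4.35% and 4.29% of all genes tested. Groups did not overlap in 0 genes that were higher and 2 that were lower (2.44%), among them Vamp1, beside 2.72% and 3.3% of all genes tested. The 82 genes had a median log2 fold change of -0.03, and 0 of them were under -1.

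The genes for enteric neuron identity (8 of 10 tested, 4 above and 4 below 0) had a median log2 fold change of -0.04. Isl1, a LIM homeobox factor, was the most abundant of the list at 56.4, 81.7, 52.0 and 33.3 normalized CPM in MGL KO and 54.5, 60.6, 93.9 and 60.0 in WT replicates 1 to 4, and Ednrb, the endothelin receptor of migrating precursors, followed at 26.8 ± 3.97 and 32.1 ± 7.12 (SD, n = 4). The groups overlapped for both genes.

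Ligands and co-receptors of Ret (7 of 8 tested) had a median log2 fold change of -0.16. The co-receptors for neurturin and GDNF, Gfra2 and Gfra1, were the most abundant, with log2 fold changes of 0.21 (standard error 0.19) and -0.16 (standard error 0.39). Artn, a ligand of the family, had the lowest value of the list, -0.81 (standard error 0.34), on 15 to 72 counts and with overlapping groups. In the list for acetylcholine handling (5 of 6 tested, median -0.01), the esterases Ache and Bche led, at log2 fold changes of -0.40 (standard error 0.20) and 0.09 (standard error 0.17). The genes around nitric oxide and VIP (9 of 10 tested) had a median of -0.24, with 2 above and 7 below 0. They include Gucy1a1, a subunit of the nitric oxide receptor of smooth muscle (-0.49, standard error 0.25), and Prkg1, the cGMP-dependent kinase (-0.24, standard error 0.20), and none of the 9 had an unadjusted p under 0.05.

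In the neuropeptide list, 4 of 10 genes were tested, with a median of 0.15. Penk, the enkephalin precursor, was at 12.2 ± 3.87 normalized CPM (SD, n = 4) in MGL KO and 15.1 ± 0.776 (SD, n = 4) in WT, and Cartpt at 7.83 ± 3.41 and 6.26 ± 1.76, with overlapping groups in both. Relatives of Elavl4 and other neuronal RNA-binding proteins (5 of 7 tested) had a median of 0.01, led by Rbfox1 at 0.02 (standard error 0.20) and Nova1 at -0.31 (standard error 0.17). The list with the ubiquitin hydrolases (8 of 8 tested, median -0.10) was led by Uchl5 (0.25, standard error 0.13) and Uchl3 (0.10, standard error 0.15). Thy1, a surface antigen of neurons and other cells, was also in that list, at -0.58 (standard error 0.21).

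The neuronal cytoskeleton list (6 of 8 tested) had a median of 0.24, the highest of the 11 lists. Map1b, a microtubule-associated protein, was at 123, 154, 91.2 and 123 normalized CPM in MGL KO and at 73.8, 78.4, 92.8 and 82.4 in WT replicates 1 to 4. MGL KO replicate 3 lay below WT replicate 3, so the groups overlapped, and the log2 fold change was 0.58 (standard error 0.16, edgeR quasi-likelihood adjusted p = 0.478). Mapt, which encodes tau, was at 0.30 (standard error 0.21). Among the 19 genes of vesicle release, all tested and with a median of -0.03, Vamp1 was lower in every MGL KO library, at 37.2, 28.3, 35.7 and 30.7 against 43.6, 47.0, 44.0 and 43.4 normalized CPM in WT replicates 1 to 4. Its log2 fold change was -0.43 (standard error 0.11, edgeR quasi-likelihood adjusted p = 0.418). The paralog Vamp2 was at 0.06 (standard error 0.11), and Snap23, the relative of Snap25 outside neurons, at -0.03 (standard error 0.11).

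The BCH domain relatives of Atcay (5 of 5 tested) had a median of -0.01, and the groups overlapped for all of them. Prune2 was at 80.1 ± 11.4 normalized CPM (SD, n = 4) in MGL KO and 110 ± 20.1 (SD, n = 4) in WT, a log2 fold change of -0.45 (standard error 0.16, edgeR quasi-likelihood adjusted p = 0.509). Bnip2 was at 0.08 (standard error 0.11). Markers of sympathetic and sensory neurons (6 of 9 tested) had a median of 0.13, led by the noradrenaline transporter Slc6a2 at 0.17 (standard error 0.26) and by Th, the enzyme that begins catecholamine synthesis, at 0.27 (standard error 0.38).

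**Figure D4:**
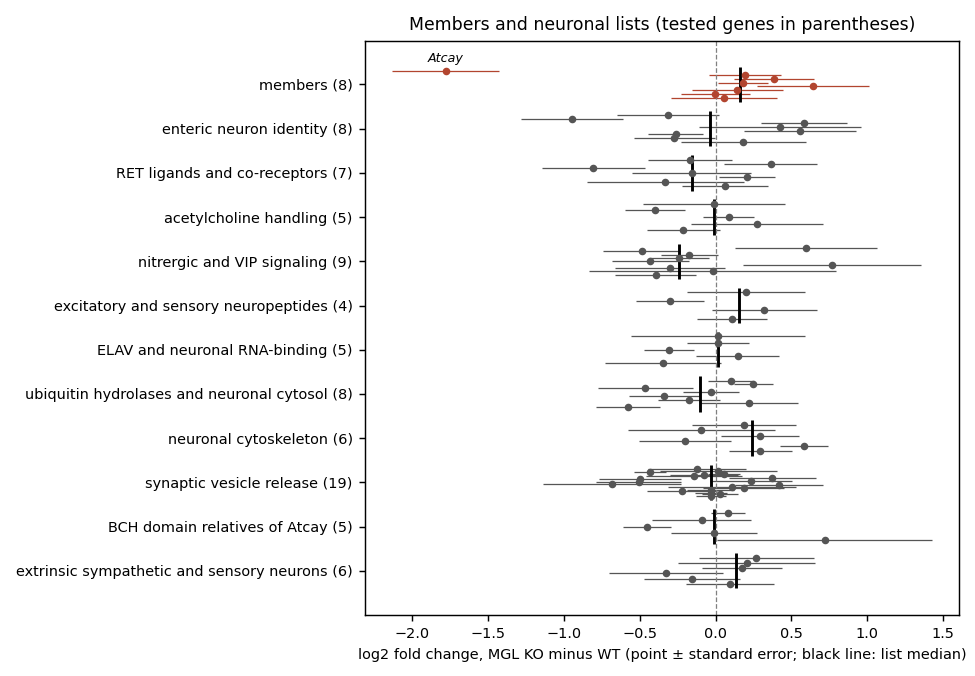
Log2 fold changes (MGL KO minus WT, horizontal axis) with standard errors for the 8 tested members (red) and the tested genes of 11 neuronal lists (grey), with list medians as black lines. Atcay stands at -1.78, and 0 genes of the 11 lists lie under -1.

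The genes with the pattern most like Atcay were ranked by the Pearson correlation of log2 CPM over the 8 libraries, as a description. The closest were Nrde2 (r = 0.984), Tet1 (r = 0.976), Mamstr (r = 0.974), Parp8 (r = 0.974) and the microRNA gene Mir133a-2 (r = 0.973). All 5 were lower in every MGL KO library, which the choice by a pattern with separate groups favors. Mamstr, a coactivator of the muscle transcription factor MEF2, was at 66.4, 69.8, 77.6 and 46.4 normalized CPM in MGL KO and at 86.9, 108, 146 and 99.7 in WT replicates 1 to 4. Mir133a-2, whose microRNA is made in striated muscle, had 0.843 to 1.62 normalized CPM in MGL KO and 2.85 to 6.05 in WT libraries. It came closest to Atcay in size, at a log2 fold change of -1.71 (standard error 0.34).

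When the group means were removed, the closest genes were Nova1 (r = 0.996), Rgma (r = 0.980), Slc38a3 (r = 0.979), Maea (r = 0.978) and Ksr1 (r = 0.972) over the 8 libraries. Nova1, a neuronal splicing factor, was at 17.6, 19.9, 21.0 and 13.8 normalized CPM in MGL KO and at 20.5, 20.6, 27.5 and 20.8 in WT replicates 1 to 4. Like Atcay, it was highest in WT replicate 3 and lowest in MGL KO replicate 4 of its group, but its groups overlapped. Among the other members, the correlation with Atcay within groups was highest for Uchl1 (r = 0.77) and lowest for Snap25 (r = -0.63). For the mean of the other 7 tested members, the genes of closest pattern were Wnt9a (r = 0.962), Slc38a4 (r = 0.959), Nrde2 (r = 0.952) and Maea (r = 0.944). The libraries share their content of muscle and epithelium across all of these genes.

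**Figure D5:**
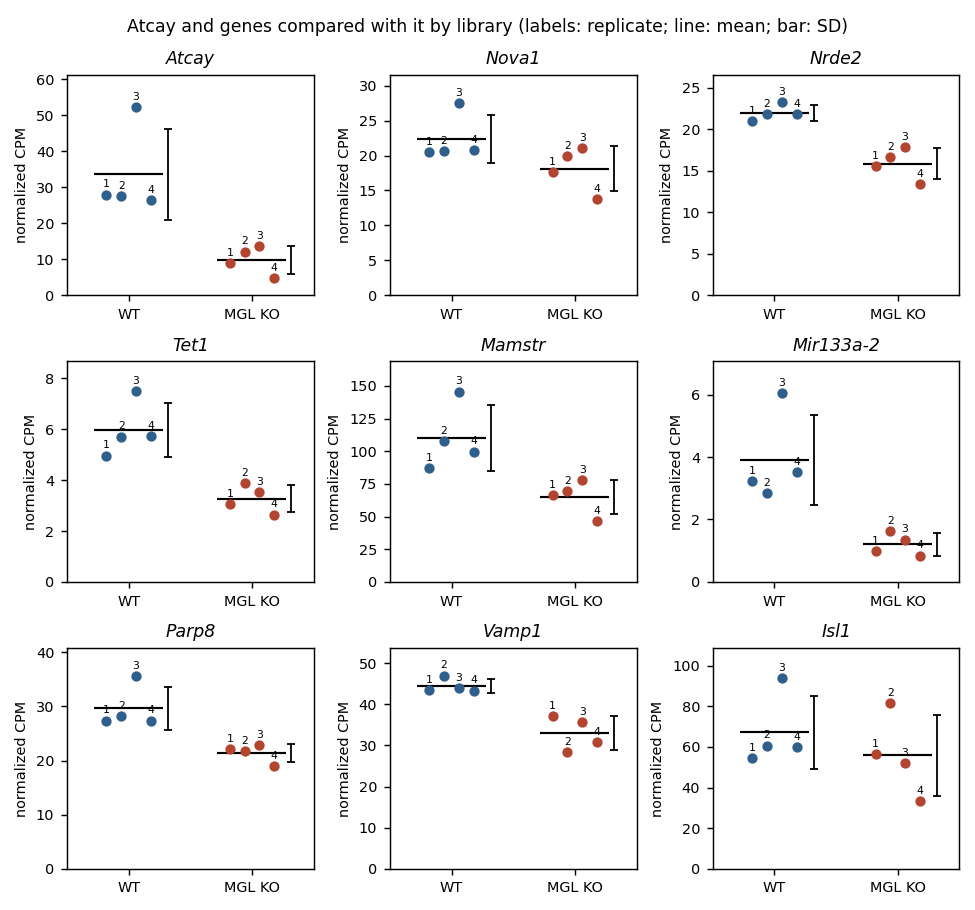
Normalized CPM (vertical axes from 0) by library of Atcay and 8 other genes named in the text, with WT in blue, MGL KO in red, replicate numbers at the points, means as lines and SD as bars. WT replicate 3 is the highest WT library for Atcay, Nova1, Nrde2, Tet1, Mamstr, Mir133a-2, Parp8 and Isl1 but not for Vamp1.

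Markers of other cell types are given beside Atcay. On the mean log2 CPM scale, the skeletal muscle markers were at 11.29, 11.95, 11.51 and 10.72 in MGL KO and at 11.13, 11.37, 11.84 and 11.51 in WT replicates 1 to 4. MGL KO replicate 4 was lowest in its group, and WT replicate 3 highest in its group, for both muscle and Atcay. MGL KO replicate 2 had the most skeletal muscle of all 8 libraries and 12.1 normalized CPM of Atcay, below every WT library. Whether the Atcay RNA came from neurons, from muscle or from other cells was not tested. The 12 skeletal muscle markers had a median log2 fold change of 0.02, and 1 of them, the fast myosin gene Myh4, had an unadjusted p under 0.05, at a log2 fold change of -1.33 (standard error 0.41). Markers of enteric glia and Schwann cells, the partners of neurons in ganglia and nerves, summed to between 185.4 and 392.1 normalized CPM in MGL KO and between 177.8 and 423.9 in WT libraries. Their median log2 fold change was -0.11, with 3 above and 7 below 0 and 0 of 10 at an unadjusted p under 0.05. Smooth muscle markers summed to between 6881 and 14596 normalized CPM in MGL KO and between 6988 and 11016 in WT, with a median log2 fold change of 0.12. Most of these sums was Des, the desmin gene, which skeletal muscle also expresses, at 4674 to 11885 normalized CPM in MGL KO and 5050 to 8099 in WT, highest in MGL KO replicate 2 and WT replicate 3.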

How the data were processed

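The authors selected poly(A) RNA, trimmed reads with Cutadapt, aligned them to GRCm39 with STAR 2.7.10b after FastQC 0.11.9, and deposited counts per gene symbol and library, as whole numbers without normalization; counting tool and annotation are not given in the sources used here. Each library was taken as 1 esophagus of 1 mouse. Groups followed the sample labels. The 9 members and all lists were chosen with earlier results of these data known.

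Genes were kept by filterByExpr at a minimum count of 10 (14864 of 22721 with a count, holding 98.1% to 99.9% of the counts of a library) and scaled by TMM factors. MGL KO was compared with WT by the quasi-likelihood test of edgeR 4.0.16 (R 4.3.3), with Benjamini-Hochberg adjustment over all genes tested and a threshold of 0.05. Each standard error was taken as |log2 fold change| over the root of its F statistic. The study's methods name the exact test, an alternative here beside DESeq2 1.42.0 and limma-voom 3.58.1 with quality weights, other scalings and filters, marker covariates, the replicate number as a block and each library left out. Named genes were the members, Mgll, the 2 most abundant genes of each neuronal list and up to 3 with separate groups, the 5 most alike in pattern, and the 2 protein-coding neighbours of Atcay on each side. Other genes, among them Artn, Slc18a3, Slc5a7, Thy1, Foxj1 and Myh4, were named after their values were seen, and some genes that the rule names are not reported here. Log2 CPM used a prior count of 1. Positions and transcript lengths came from GENCODE M39 on GRCm39, where all 9 members were found, and promoters from RefSeq on GRCm38.p6. Libraries of 1 group differed beyond sampling noise in every pair (chi-square per degree of freedom at least 13.6).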

Additional observations from a re-analysis of the deposited data

Results flagged for a closer look

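In 10 of 120 groups of 4 values, 1 library lay far from the other 3 of its group, where chance gives about 1 in 20, or 6. The counts cannot be set against each other, since Nova1, Parp8 and Rgma were chosen for a pattern like that of Atcay, in which WT replicate 3 is high. WT replicate 3 was the high library in 6 of them, with Atcay at 52.4 normalized CPM (others at most 27.9), Isl1 at 93.9 (at most 60.6), Nova1 at 27.5 (at most 20.8), Parp8 at 35.6 (at most 28.2), Rgma at 99.2 (at most 85.0) and the Atcay neighbour Dapk3 at 33.1 (at most 28.8). This library also had the most skeletal muscle and the least squamous epithelium of the WT group. With the skeletal muscle markers as a covariate, the log2 fold change of Isl1 was -0.21 (standard error 0.10), against -0.27 (standard error 0.27) without it. It was -0.06 without WT replicate 3, -0.09 without MGL KO replicate 4 and 0.12 with both left out, so its sign rests on these libraries. In MGL KO replicate 3, Gfra2 was high at 18.8 normalized CPM (the rest at most 13.3), and Bche was low in MGL KO replicate 4 (26.1, others at least 36.0). The airway ciliated markers summed to 1410 normalized CPM in MGL KO replicate 4 (others at most 895), much of the sum elsewhere being Tppp3, which is not limited to airway. The thyroid markers summed to 6.19 normalized CPM in WT replicate 1 (others at most 1.64).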

How the results depend on the processing

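Of the 8 tested members, 0 were called by the quasi-likelihood test of edgeR, and 1, Atcay, was called by the exact test on filtered genes, the exact test on every gene with a count, DESeq2, the quasi-likelihood fit given the skeletal muscle covariate and, added after the data were seen, the exact test with library size alone. Leaving out 1 library in turn called 0 to 0 members and 0 to 0 genes of the neuronal lists. Of these list genes, 0 were called in every setting but DESeq2, which called 1 (Vamp1). The cause of the differences between tests was not tested. The log2 fold change of Atcay stayed between -1.98 and -1.47 with 1 library left out. Signs changed within the standard error or without 1 library for Ret (-0.10 without MGL KO replicate 3), Elavl4, Prph and Snap25. With MGL KO replicate 4 and WT replicate 3 both left out, Uchl1 was at 1.07 (standard error 0.27) and Snap25 at -0.33 (standard error 0.35). In limma-voom with quality weights, Vip was at 0.11, against 0.38 in the quasi-likelihood test. The replicate block called 0 members and left Atcay at -1.82 (edgeR quasi-likelihood adjusted p = 0.502). Same-numbered libraries correlated in their deviations from the group means at -0.14, -0.28, -0.14 and 0.08 over 14864 genes. The labels link them by number only, and these correlations cannot show whether they shared a litter or a batch. Depth limits Chat, Slc18a3 and Elavl4, with at most 31 counts in a library.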

Other observations

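Further cell types of the wall and its surroundings were read from their markers. Genes of interstitial cells of Cajal, the pacemaker cells between nerve and muscle, summed to between 258.4 and 364.0 normalized CPM in MGL KO and between 274.7 and 347.4 in WT libraries, with a median log2 fold change of 0.08 over 6 genes. Thbs4 and Prkcq made up most of these sums, and Prkcq was highest in MGL KO replicate 2 (200.2 normalized CPM) and lowest in MGL KO replicate 4 (90.0), as the skeletal muscle markers were. Kit, the receptor that defines interstitial cells of Cajal, was at 0.10 (standard error 0.23). Neuroendocrine markers summed to between 12.9 and 16.4 normalized CPM in MGL KO and between 12.6 and 13.9 in WT, with Neurod1 at 0 counts in every library. Tuft cell markers, which can include Chat-expressing cells, summed to between 10.1 and 13.3 normalized CPM in MGL KO and between 12.2 and 16.2 in WT. Thyroid markers summed to at most 7.22 normalized CPM in any library, with Pth at 0 counts in all of them. The squamous epithelial markers had a median log2 fold change of 0.04, and the airway ciliated markers that were tested had one of 2.18, with all 5 above 0. Of these, Tppp3 was higher in every MGL KO library, at 827.4 ± 53.4 normalized CPM (SD, n = 4) against 508.5 ± 138.6 (SD, n = 4) in WT, and the others were high in MGL KO replicate 4. The Y-linked genes summed to between 185.6 and 223.7 normalized CPM over the 8 libraries, so all of them expressed these genes.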
